A study of Mus musculus with 8 samples.

Results

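Transcript levels of 39 tight junction genes were examined in mouse distal colon, out of 52143 genes in the deposited table. The genes were chosen by name from a fixed list: 20 claudins and 19 genes for the other membrane proteins, the cytoplasmic plaque and the polarity complexes of the junction. All 39 were found, with Pals1 listed under its other symbol, Mpp5. RNA came from 4 Control samples (Villin1-Cre-ERT) and 4 Siglec-XII samples (SIGLEC12-Villin1-Cre-ERT), numbered 1 to 4 in each group. Both groups carried the Villin1-driven, tamoxifen-dependent Cre and both received tamoxifen (10 mg/ml) for 5 days, starting at 8 weeks of age by the methods, with the colon taken 7 days after the last dose. The Siglec-XII mice also carried 1 ROSA26 allele in which a floxed EGFP stop cassette, under a CAG promoter, stands before the human SIGLEC12 coding sequence, and the Control mice were littermates with the Cre alone. Villin1 drives the Cre in epithelium of the small and large intestine, so that muscle, vessel and immune cells of the same tissue pieces were not meant to be recombined. The table holds no row for SIGLEC12, EGFP or Cre, and the genotype on the labels was not verifiable from it. The labels list 4 samples per group, whereas the design text speaks of 3 mice per condition and the methods of 3 technical replicate libraries per sample, so that P values measure the spread between these samples, which may in part be technical. The comparison asks what expression of Siglec-XII does to the colon before any carcinogen is given.

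Tight junctions close the space between neighboring epithelial cells near their apical edge. Claudins are membrane proteins that join across that space into strands, and their mixture sets how tight the seal is and which ions pass. Sealing claudins restrict passage, pore claudins form channels for ions or water, and occludin, angulins, immunoglobulin-like adhesion molecules, zonula occludens proteins, cingulins and the Crumbs and Par polarity complexes hold, anchor and position the strands.

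The 250 bases before the RefSeq start sites (build GRCm38.p6) are shown for Cldn7 and Cldn3, which led the ranking of claudins, for Cldn4, the neighbor of Cldn3 on the chromosome, and for Cldn2 and Cldn15, the pore claudins of the tested set. They are read 5′ to 3′ along the gene. Cldn7 has 2 start sites in RefSeq, the second 642 bases downstream of the first. The RefSeq start of Cldn15 lies 1253 bases downstream of the gene start in GENCODE M21, so its window lies within the gene as annotated there. Capitals mark matches on either strand to 4 short motifs: the TATA box TATAAA, the GC box GGGCGG, the homeodomain motif TTTATN known for the intestinal CDX factors, and the E-box CAGGTG. Every TATAAA also matches TTTATN on the opposite strand.
Cldn7 start 1, chr11:69964529-69964778, plus strand: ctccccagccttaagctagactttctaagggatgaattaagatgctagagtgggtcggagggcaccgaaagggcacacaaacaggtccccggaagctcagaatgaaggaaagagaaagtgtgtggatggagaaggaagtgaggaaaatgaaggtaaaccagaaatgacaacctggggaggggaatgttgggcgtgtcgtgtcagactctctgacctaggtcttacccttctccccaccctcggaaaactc
Cldn7 start 2, chr11:69965171-69965420, plus strand: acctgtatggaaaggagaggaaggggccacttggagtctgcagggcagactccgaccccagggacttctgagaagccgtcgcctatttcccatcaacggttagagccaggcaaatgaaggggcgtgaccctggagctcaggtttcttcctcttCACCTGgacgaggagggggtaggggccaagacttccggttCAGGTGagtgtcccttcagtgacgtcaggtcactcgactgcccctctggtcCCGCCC
Cldn3, chr5:134985964-134986213, plus strand: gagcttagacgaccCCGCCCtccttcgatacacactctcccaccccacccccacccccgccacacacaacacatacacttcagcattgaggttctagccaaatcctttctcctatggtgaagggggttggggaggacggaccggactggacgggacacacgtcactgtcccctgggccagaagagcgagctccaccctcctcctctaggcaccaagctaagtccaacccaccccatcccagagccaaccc
Cldn4, chr5:134946935-134947184, minus strand: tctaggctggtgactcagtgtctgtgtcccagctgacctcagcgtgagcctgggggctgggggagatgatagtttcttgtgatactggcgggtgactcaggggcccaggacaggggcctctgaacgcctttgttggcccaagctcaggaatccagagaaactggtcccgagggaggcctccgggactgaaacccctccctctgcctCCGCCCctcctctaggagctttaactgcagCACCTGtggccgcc
Cldn2, chrX:139800558-139800807, plus strand: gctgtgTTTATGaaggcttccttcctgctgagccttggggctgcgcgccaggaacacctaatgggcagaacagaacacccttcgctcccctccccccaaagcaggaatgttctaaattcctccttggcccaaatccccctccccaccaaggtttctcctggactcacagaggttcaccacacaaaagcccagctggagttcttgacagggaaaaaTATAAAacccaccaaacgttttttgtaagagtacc
Cldn15, chr5:136967619-136967868, plus strand: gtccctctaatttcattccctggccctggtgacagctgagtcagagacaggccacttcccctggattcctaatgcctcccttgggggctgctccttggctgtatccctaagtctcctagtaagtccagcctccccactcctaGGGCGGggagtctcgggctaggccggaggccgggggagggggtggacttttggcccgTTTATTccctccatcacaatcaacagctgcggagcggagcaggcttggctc

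The GC box occurred once in each of these windows except those of Cldn2 and of the first Cldn7 start, which held none of it. The window of the first Cldn7 start matched none of the 4 motifs, and the second held 2 E-boxes. Cldn2 alone among the 5 genes had a TATA box, together with 2 matches of TTTATN, 1 of them the TATA box read on the other strand. Cldn15 held 1 match of TTTATN, and Cldn4 held 1 E-box. Of 32851 RefSeq promoter windows of the same length, 12.4% held TATAAA, 32.7% GGGCGG, 37.2% TTTATN and 17.2% CAGGTG. Cldn7 lies on chromosome 11 from 69964779 to 69967885. Cldn3 (134986214 to 134987472) and Cldn4 (134945119 to 134946934) are single-exon genes on opposite strands of chromosome 5, 39279 bases apart. With Cldn13, for which no promoter entry was at hand, they span 73224 bases, gaps between the genes included. Cldn3 had a higher TPM than its neighbor Cldn4 in every sample, and Cldn13 was listed at 0 in 7 of 8 samples.

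Levels are given as TPM, the length-corrected share of a gene among all transcripts, scaled to the same total in each sample. TPM correct for transcript length and therefore allow genes to be ranked within a sample. They carry no sequencing depth. Siglec-XII samples 3 and 4 stood apart on the first principal component of the 13164 tested genes, at 36.2 and 50.2 against −29.0 to −4.81 for the other 6 samples, and results that rest on them are also given without them. Control 1 stood apart on the second component, at 47.7 against −22.8 to 16.4 for the rest. Summed epithelial markers (10 of 10 listed genes found) ran from 14116 to 18705 TPM in Control samples and from 14213 to 18385 TPM in Siglec-XII samples, and none of the 10 passed at unadjusted P. The tissue also held other cells. Summed smooth muscle markers ran from 689 to 1092 TPM in Control and from 330 to 704 TPM in Siglec-XII samples. Of these 8 genes, 4 were lower at unadjusted P, against 7.67% of all tested genes. Summed fibroblast and mesothelial markers were highest in Siglec-XII 4, at 63.9 and 20.5 TPM, against at most 26.6 and 2.83 TPM in the other samples. The part of these cells in the results was not tested.

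The colon ranking was led by 2 claudins. Cldn7, a claudin with functions in both the strand and the lateral membrane, averaged 927 ± 107 TPM (SD, n = 4) in Control samples, and Cldn3, a sealing claudin, averaged 690.0 ± 74.9 TPM (SD, n = 4). Together they made up 81.7% to 86.2% of all claudin TPM in each of the 8 samples. Cldn7 was 782, 1040.3, 954 and 931 TPM in Control samples 1 to 4, and 1014, 997, 932 and 896 TPM in Siglec-XII samples 1 to 4. Cldn3 was 581, 744, 734 and 701 TPM in Control samples 1 to 4, and 774, 762, 732 and 694 TPM in Siglec-XII samples 1 to 4. Control 1 was the lowest of the 8 samples for both genes, and the groups overlapped. The ratio of Cldn3 to Cldn7 stayed between 0.715 and 0.785 in all 8 samples, although their summed level varied with the sample.

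A wide gap separated this pair from the next 3 claudins, whose Control ranges overlapped one another. Cldn8, a sealing claudin that limits sodium passage in the distal gut, was 42.5, 95.6, 93.3 and 80.3 TPM in Control samples 1 to 4, and 90.4, 97.8, 99.6 and 66.1 TPM in Siglec-XII samples 1 to 4. Cldn2, which forms channels for sodium and water, was 70.5, 86.4, 83.6 and 68.6 TPM in Control samples 1 to 4, and 80.8, 63.5, 56.6 and 39.7 TPM in Siglec-XII samples 1 to 4. Cldn4, a sealing claudin of the surface epithelium, was 79.4, 91.1, 42.2 and 82.4 TPM in Control samples 1 to 4, and 65.9, 58.4, 59.1 and 50.3 TPM in Siglec-XII samples 1 to 4. Their Control means, 77.9, 77.2 and 73.8 TPM, differed by less than the spread of any of the 3 genes. Low values came from different samples in each case, Control 1 for Cldn8, Control 3 for Cldn4 and Siglec-XII 4 for Cldn2.

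A further 3 claudins had Control means of 25.8 to 36.4 TPM, with neighboring Control ranges that overlapped. Cldn12, whose part in the strand is less well settled, was 29.9, 37.8, 42.6 and 35.5 TPM in Control samples 1 to 4, and 40.7, 37.9, 33.9 and 36.2 TPM in Siglec-XII samples 1 to 4. Cldn23, a claudin of differentiated colonocytes, was 20.8, 39.7, 27.7 and 40.7 TPM in Control samples 1 to 4, and 27.6, 36.0, 37.7 and 28.8 TPM in Siglec-XII samples 1 to 4. Cldn15, the main sodium-channel claudin of the small bowel, was 34.4, 28.4, 20.1 and 20.4 TPM in Control samples 1 to 4, and 19.7, 19.5, 17.6 and 21.3 TPM in Siglec-XII samples 1 to 4. The Siglec-XII samples of Cldn15 sat together near the 2 lower Control samples, whereas those of Cldn12 and Cldn23 fell inside the Control range.

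Below a second gap came the sealing claudins Cldn14, Cldn1 and Cldn5. Cldn14, known for its role in the inner ear and kidney, was 12.2, 9.47, 5.48 and 7.06 TPM in Control samples 1 to 4, and 5.98, 4.99, 6.74 and 8.65 TPM in Siglec-XII samples 1 to 4. Cldn1, the claudin that the skin barrier cannot do without, was 14.5, 2.55, 1.75 and 9.18 TPM in Control samples 1 to 4, and 2.49, 3.02, 1.54 and 1.92 TPM in Siglec-XII samples 1 to 4. Cldn1 had the largest spread of the 27 tested members, with an SD of 0.96 on the log2 scale over the 8 samples, and its high values were those of Control 1 and Control 4. The same 2 samples had the highest summed leukocyte markers, 36.9 and 24.1 TPM, against 9.04 to 23.7 TPM in the other 6. They also had the highest summed markers of enteric glia and neurons, 11.6 and 7.75 TPM, against 5.30 to 6.73 TPM. Each of the other marker lists had its highest sum in another sample. The part of other cells in the Cldn1 level was not tested. Cldn5, the main claudin of blood vessels, was 1.33, 0.58, 1.27 and 1.07 TPM in Control samples 1 to 4, and 0.76, 0.93, 0.82 and 0.79 TPM in Siglec-XII samples 1 to 4. Summed endothelial markers ran from 2.91 to 5.63 TPM in Control and from 2.19 to 2.70 TPM in Siglec-XII samples and were, like Cldn5, lowest among Controls in Control 2.

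The remaining 9 claudins had a Control mean under 1 TPM and reached 1 TPM in none of the 8 samples. The highest of them was Cldn10, the third pore claudin, which makes cation or anion channels by isoform. Cldn10 was 0.26, 0.25, 0.50 and 0.75 TPM in Control samples 1 to 4, and 0.38, 0.34, 0.72 and 0.87 TPM in Siglec-XII samples 1 to 4. Cldn11, Cldn9, Cldn6, Cldn13, Cldn16 and Cldn19 had Control means of 0.0020 to 0.079 TPM, and Cldn18, the stomach and lung claudin, and Cldn22 were listed at 0 in all 8 samples. Cldn22 shares 45.8% of its 31-base windows with its near copy Cldn24, also listed at 0. In the order from Cldn7 down, the Control ranges of neighbors did not overlap at 5 places: between Cldn7 and Cldn3, Cldn3 and Cldn8, Cldn15 and Cldn14, Cldn1 and Cldn5, and Cldn10 and Cldn11.

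**Figure D1:**
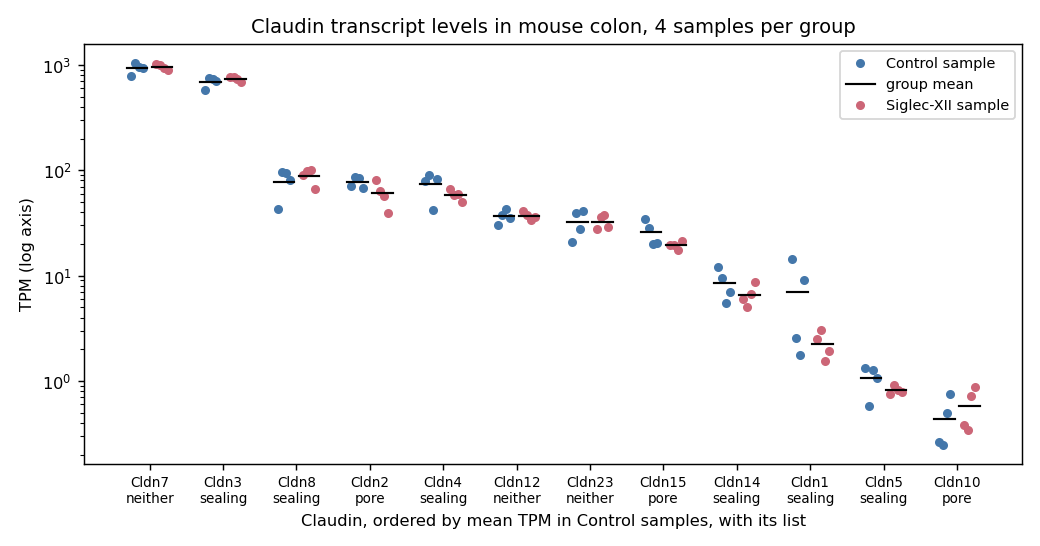
TPM on a log axis for the 12 claudins with the highest Control means, 4 Control samples (blue) and 4 Siglec-XII samples (red) per gene, ordered by Control mean (black bars are group means). Cldn7 and Cldn3 sit alone near the top, Cldn8, Cldn2 and Cldn4 overlap, and the 4 Control values of Cldn1 run from 1.75 to 14.5 TPM.

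Sealing claudins outweighed pore claudins in every sample. In Control samples the sealing list (Cldn1, Cldn3, Cldn4, Cldn5, Cldn8, Cldn11, Cldn14, Cldn18 and Cldn19) summed to 858 ± 90.1 TPM (SD, n = 4) and the pore list (Cldn2, Cldn10 and Cldn15) to 103.5 ± 10.4 TPM (SD, n = 4). The pore sum was 14.4%, 12.2%, 11.9% and 10.2% of the sealing sum in Control samples 1 to 4, a log2 ratio of −3.05 ± 0.20 (SD, n = 4). The ratio depends on which genes the lists hold. With Cldn7 counted as sealing it was −4.11, and with Cldn3 and Cldn2, the highest gene of each list, left out it was −2.70.

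In Siglec-XII samples the pore sum was 10.7%, 8.99%, 8.33% and 7.52% of the sealing sum in samples 1 to 4. The log2 ratio averaged −3.50 ± 0.22 (SD, n = 4), 0.45 below the Control mean, and the groups overlapped only through Siglec-XII 1 (−3.22), which lay above Control 4 (−3.30). The pore sums were 80.3 ± 16.4 TPM (SD, n = 4) and the sealing sums 897 ± 52.6 TPM (SD, n = 4), so that the pore sum had the lower mean in Siglec-XII samples and the sealing sum the higher one. Without Siglec-XII 3 and 4 the difference of the log2 ratios was −0.30. No test was made of this ratio, since it is a score over genes chosen with earlier results of these data known. In bulk tissue, fewer cells of a type and less RNA per cell cannot be told apart, and this holds for each difference given here.

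**Figure D2:**
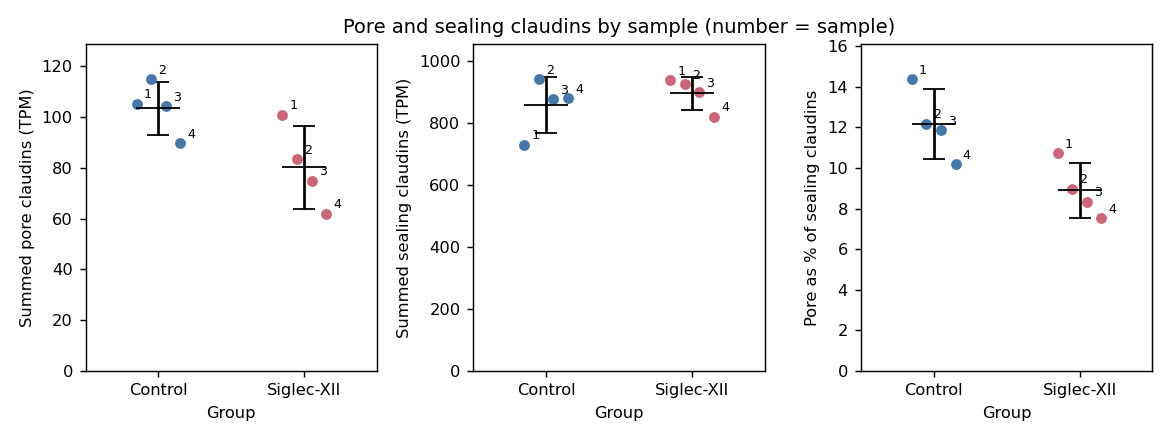
Summed pore claudins (TPM), summed sealing claudins (TPM) and the pore sum as a percentage of the sealing sum, each dot 1 sample with its number, bars the mean and SD of 4 samples. The percentage runs from 10.2 to 14.4 in Control and from 7.52 to 10.7 in Siglec-XII samples, with an overlap of 1 sample from each group.

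Differences between the groups were tested with limma over the 13164 genes with at least 1 TPM in at least 4 samples, a filter that 27 of the 39 members passed. The 12 members left out were Cldn5, Cldn6, Cldn9, Cldn10, Cldn11, Cldn13, Cldn16, Cldn18, Cldn19, Cldn22, Jam2 and Jam3. None of the 27 passed an adjusted P of 0.05 (Benjamini-Hochberg), against 5 of all tested genes (0.038%). At unadjusted P of 0.05 or less, 1 member was higher in Siglec-XII samples, Marveld3, against 157 of all genes (1.19%), and 1 was lower, Pard3, against 1010 of all genes (7.67%). Pard3 was also the only member whose groups did not overlap, lower in Siglec-XII samples, which held for 535 of all genes (4.06%). No member was higher without overlap, against 138 of all genes (1.05%). A single gene of 27 (3.7%) lay on each side, which in these counts says little about the members. The median log2 difference, Siglec-XII minus Control, was −0.17 over the 27 members (11 above 0 and 16 below) and −0.15 over all tested genes (2888 above and 10276 below). Without Siglec-XII 3 and 4 the median of the members was 0.12 and that of all genes 0.0031. The split of the members depended on the scaling between samples. Centering each sample on its median gave 7 higher (Cldn3, Cldn7, Cxadr, F11r, Ildr1, Marveld3 and Ocln) and 1 lower (Pard3) at unadjusted P, against 8.64% and 2.16% of all genes, and moved the median of all genes to 0.06. Centering on epithelial markers gave 1 higher (Marveld3) and 5 lower (Cgnl1, Cldn2, Pard3, Prkci and Tjp1), against 0.866% and 12.5% of all genes. No member passed the adjusted limit under any of the alternatives run.

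Among the 10 tested claudins, both tested pore claudins had lower means in Siglec-XII samples, as had 10276 of all 13164 tested genes. The log2 difference was −0.39 for Cldn2 (SE 0.20) and −0.35 for Cldn15 (SE 0.18), both with an adjusted P of 0.515 by limma and neither past the unadjusted limit. Without Siglec-XII 3 and 4 Cldn2 gave −0.10 and Cldn15 −0.35, so that the difference of Cldn2 was smaller without those samples. That of Cldn15 was −0.21 without Control 1, its highest sample, and that of Cldn2 was −0.21 without Siglec-XII 4, its lowest. Of the 5 tested sealing claudins, Cldn3 (0.11) and Cldn8 (0.23) were above 0 and Cldn4 (−0.28), Cldn14 (−0.30) and Cldn1 (−0.97) below. Control 1 bore on 4 of these 5, since without it Cldn3 gave 0.03, Cldn8 −0.03, Cldn14 −0.13 and Cldn1 −0.54. Cldn14 also gave −0.19 without Siglec-XII 2 and −0.47 without Control 3. Cldn1 had the lowest log2 difference of all members and also the largest SE, 0.51 (adjusted P = 0.515), and it was −0.54 to −1.37 with 1 sample left out at a time, the latter without Control 3. Cldn4 gave −0.53 without Control 3, the sample in which it was low, and passed the unadjusted limit there (adjusted P = 0.337), which it did with no other sample left out. Cldn7 (0.06), Cldn23 (0.05) and Cldn12 (0.04), which are in neither list, had the smallest differences of the tested claudins.

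The MARVEL proteins, membrane proteins that sit in or beside the claudin strands, held the 1 member with a higher unadjusted call. Marveld3 was 71.0, 83.7, 90.0 and 77.5 TPM in Control samples 1 to 4, and 104.7, 95.9, 86.8 and 98.0 TPM in Siglec-XII samples 1 to 4. Only Siglec-XII 3 lay within the Control range, below Control 3. The log2 difference was 0.26 (SE 0.10, adjusted P = 0.515). It stayed between 0.20 and 0.31 with 1 sample left out at a time, but it missed the unadjusted limit without Control 1 (difference 0.20), Control 4 (0.24), Siglec-XII 1 (0.22), Siglec-XII 2 (0.26) or Siglec-XII 4 (0.25). Occludin (Ocln), the first membrane protein named at this junction, was 58.9, 94.9, 93.5 and 87.2 TPM in Control samples 1 to 4, and 99.8, 93.2, 81.4 and 75.0 TPM in Siglec-XII samples 1 to 4. Tricellulin (Marveld2), which marks the corners where several cells meet, was 16.1, 23.3, 21.8 and 20.4 TPM in Control samples 1 to 4, and 22.2, 20.7, 15.8 and 13.8 TPM in Siglec-XII samples 1 to 4. For both genes Control 1 was the lowest Control sample and the groups overlapped, with log2 differences of 0.08 and −0.17.

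The angulins recruit tricellulin to those corners. Lsr, also a lipoprotein receptor, ranged from 156 to 237 TPM in Control and from 154 to 232 TPM in Siglec-XII samples, and Ildr1 from 48.1 to 65.0 and from 54.4 to 72.5 TPM. Their log2 differences were −0.04 and 0.08, each smaller than its SE (0.17 and 0.14). Of the immunoglobulin-like adhesion molecules, F11r (JAM-A) was 167, 224, 207 and 205 TPM in Control samples 1 to 4, and 235, 215, 190.4 and 192 TPM in Siglec-XII samples 1 to 4. Cxadr, the coxsackievirus and adenovirus receptor, ranged from 43.4 to 82.7 TPM in Control and from 63.6 to 88.4 TPM in Siglec-XII samples. The groups overlapped for both, at log2 differences of 0.05 and 0.15. Jam2 and Jam3, junctional adhesion molecules of vessels and other cells, stayed under 1 TPM in every sample, at 0.37 to 0.62 TPM and 0.26 to 0.92 TPM.

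The scaffold proteins that tie the strands to actin had lower means in Siglec-XII samples, 4 of 4 below 0 with a median of −0.34, and none passed at unadjusted P. Of all 13164 tested genes, 10276 were also below 0, and their median was −0.15. Tjp1 (ZO-1) was 19.1, 29.2, 25.3 and 28.8 TPM in Control samples 1 to 4, and 25.1, 24.1, 13.4 and 14.1 TPM in Siglec-XII samples 1 to 4. Cingulin (Cgn), which binds zonula occludens proteins and myosin, was 30.7, 35.9, 38.7 and 30.9 TPM in Control samples 1 to 4, and 38.8, 36.4, 19.0 and 15.4 TPM in Siglec-XII samples 1 to 4. Siglec-XII 1 and 2 lay among the Control samples for Tjp1, Siglec-XII 1 lay just above all Control samples for Cgn, and Siglec-XII 3 and 4 lay below every other sample for both genes. The log2 differences were −0.43 for Tjp1 (SE 0.23, adjusted P = 0.515) and −0.40 for Cgn (SE 0.28, adjusted P = 0.545), and without those 2 samples −0.04 and 0.14. Tjp3 (ZO-3), from 86.7 to 148 TPM in Control and from 77.4 to 147 TPM in Siglec-XII samples, and Cgnl1 (paracingulin), from 7.70 to 10.7 and from 6.09 to 10.3 TPM, gave −0.18 and −0.28, and 0.15 and −0.05 without those 2 samples. Cgn shares 21.6% of its 31-base windows with the annotated gene BC021767, which was listed at 0.056 to 0.45 TPM, so that its level is uncertain by the few reads that could be split between them.

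The Par complex sets the apical edge at which the junction forms. Its 3 members were below 0 with a median of −0.43, and 10276 of all 13164 tested genes were below 0 as well. Pard3, the scaffold of the complex, was 20.9, 24.7, 21.4 and 24.1 TPM in Control samples 1 to 4, and 20.0, 20.5, 14.6 and 11.6 TPM in Siglec-XII samples 1 to 4. The highest Siglec-XII value lay just under the lowest Control value, and Siglec-XII 3 and 4 lay well below both. The log2 difference was −0.46 (SE 0.18, adjusted P = 0.515). It missed the unadjusted limit without Control 2 (difference −0.42), Control 4 (−0.43), Siglec-XII 3 (−0.41) or Siglec-XII 4 (−0.31), and with limma array weights (−0.22), and without both Siglec-XII 3 and 4 the difference was −0.16. Prkci, the atypical protein kinase C of the complex, ranged from 30.5 to 35.5 TPM in Control and from 16.3 to 32.2 TPM in Siglec-XII samples (log2 difference −0.43, adjusted P = 0.515), and Pard6b, its regulatory partner, from 11.6 to 15.1 and from 7.86 to 16.5 TPM (−0.22). Without Siglec-XII 3 and 4 these were −0.08 and 0.13.

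In the Crumbs complex, which sits apical to the junction, the small membrane protein Crb3 ranged from 99.3 to 135.5 TPM in Control and from 117 to 133 TPM in Siglec-XII samples, a log2 difference of 0.10. Its scaffolds Patj (from 21.2 to 33.8 and from 17.1 to 29.0 TPM) and Pals1 (from 13.4 to 17.8 and from 10.9 to 18.6 TPM) gave −0.24 and −0.10, and 0.06 and 0.21 without Siglec-XII 3 and 4. Crb3 overlaps Dennd1c, at 21.6 to 41.3 TPM, and Slc25a23, at 4.04 to 9.14 TPM, both on the opposite strand. Tjp3 likewise overlaps Apba3, at 19.0 to 24.5 TPM. Cxadr overlaps Btg3, at 6.2 to 10.8 TPM, and Lsr overlaps Gm4673, at 2.89 to 5.18 TPM, in the same way. The kit named in the labels, one for total RNA, keeps strand, as does the mRNA kit that the methods name instead. The setting used for counting was not stated, so the levels of members with such an overlap are uncertain to that extent.

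**Figure D3:**
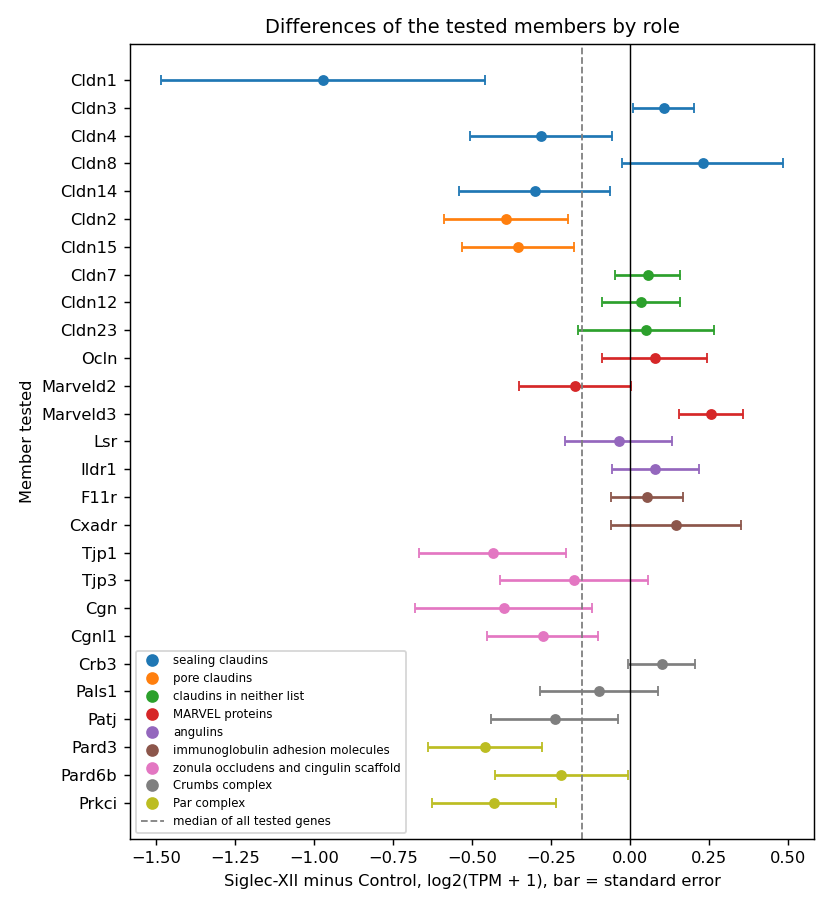
Log2 difference, Siglec-XII minus Control, with its standard error from limma, for the 27 tested members, colored by role, with 4 samples per group. The dashed line is the median of all tested genes (−0.15), the 7 scaffold and Par complex genes lie to its left, and Marveld3 is the rightmost point at 0.26.

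Within the Control group, samples 1 and 2 stood at the ends of the range for most members. Control 1 was the lowest of the 4 Control samples in 20 of 27 members (74.1%), against 54.5% of all tested genes, and Control 2 was the highest in 18 of 27 (66.7%), against 39.4%. The mean of the log2 epithelial markers was 9.37, 9.81, 9.82 and 9.60 in Control samples 1 to 4, and 9.83, 9.83, 9.47 and 9.33 in Siglec-XII samples 1 to 4. Control 1 and Siglec-XII 3 and 4 had the least epithelial marker signal by this measure. By summed TPM, Control 4 (15386 TPM) lay below Siglec-XII 3 (16296 TPM). The median SD of the members over the 8 samples was 0.32 on the log2 scale, against 0.257 for all genes. After each sample was centered on its epithelial marker mean the SD was smaller in 18 of 27 members (66.7%), against 53.2% of all genes, and its median was 0.223 against 0.239.

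**Figure D4:**
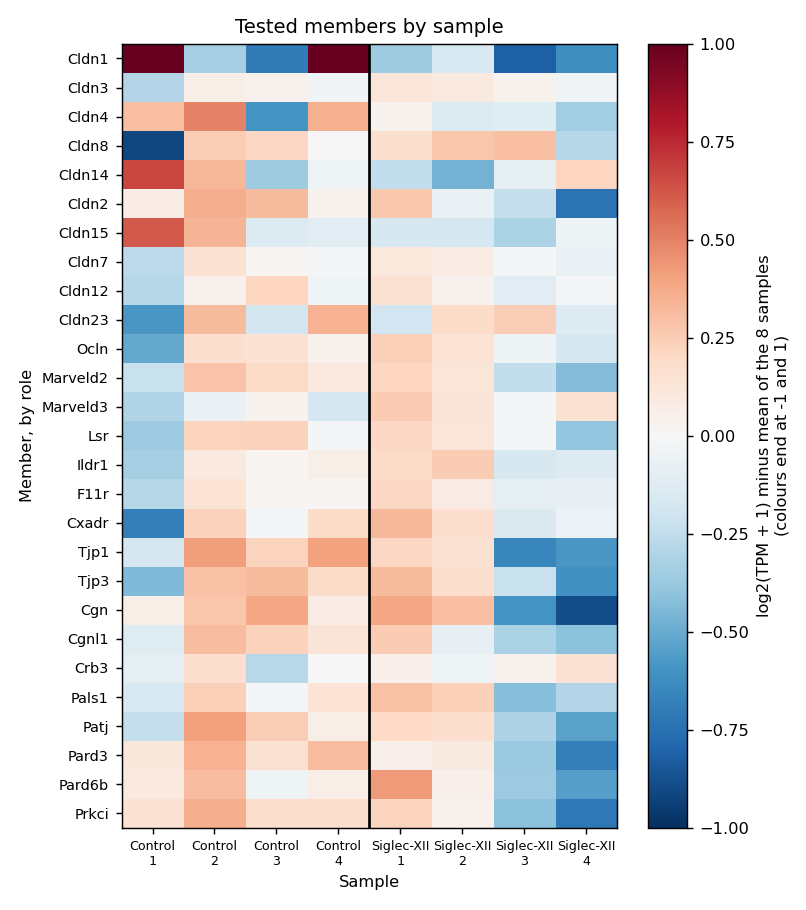
Each of the 27 tested members by sample, as log2(TPM + 1) minus its mean over the 8 samples (red above, blue below, colors end at −1 and 1), ordered by role. Control 1 is blue for Cldn3, Cldn7, Cldn8 and the MARVEL, angulin and immunoglobulin-like genes, and Siglec-XII 3 and 4 are blue for the scaffold and Par complex genes.

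Transcript length divided the members in Siglec-XII 3 and 4. The 9 tested members whose longest protein-coding transcript has at least 4000 bases (Ocln, Prkci, Cgn, Pals1, Cxadr, Pard3, Cgnl1, Tjp1 and Patj) lay at a median of −0.47 and −0.65 from the Control mean in Siglec-XII 3 and 4 on the log2 scale, and the 18 shorter members at −0.10 and −0.14. In Siglec-XII 1 and 2 the long members lay at 0.12 and 0.05 and the short ones at 0.15 and 0.07. All tested genes showed the same order: −0.44 and −0.61 for 3762 long genes against −0.16 and −0.28 for 9241 shorter ones in Siglec-XII 3 and 4. Siglec-XII 3 and 4 were the lowest 2 of the 8 samples in 10 of the 27 members (37%), against 41.6% of all tested genes. By length this held for 7 of the 9 long members (77.8%) and 3 of the 18 short ones (16.7%). The share over all tested genes was not counted by length, so these 2 shares have no background beside them. Claudins are short, with all 10 tested claudins under the limit, whereas 5 of the 7 scaffold and Par complex genes (all but Tjp3 and Pard6b) were over it. The median log2 difference of the long members was −0.28 (2 above 0 and 7 below), and without those 2 samples it was 0.06 (5 above and 4 below). Over all long genes it was −0.24 (383 above and 3379 below), and 0.04 (2282 above and 1480 below) without them. The short members divided 9 above and 9 below, and 13 and 5 without those samples. The members nearest the limit of 4000 bases were Ocln at 4052 and Cldn12 at 3752. The part of transcript length in these differences was not tested.

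**Figure D5:**
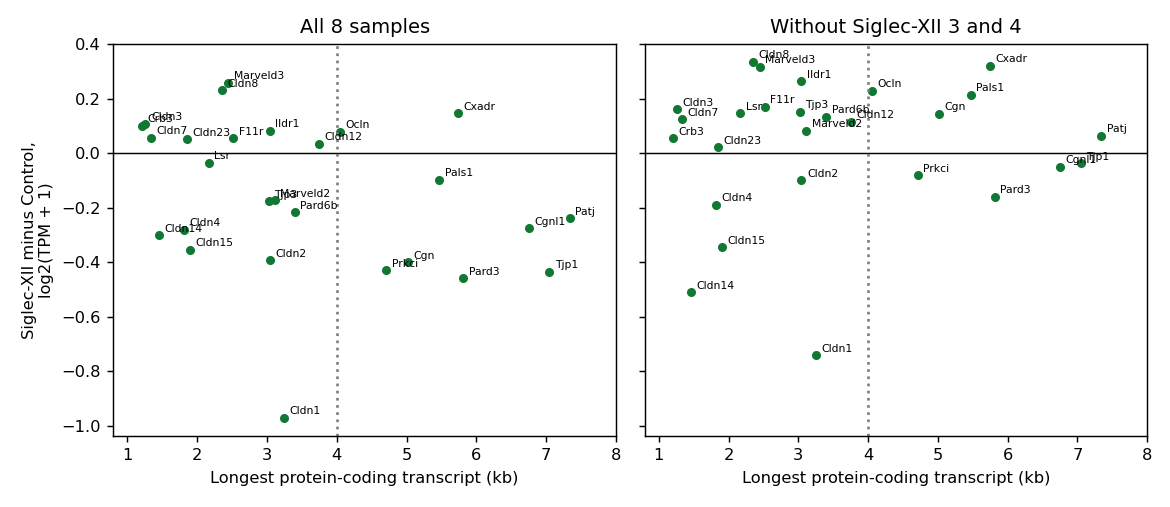
Log2 difference, Siglec-XII minus Control, against the longest protein-coding transcript in kilobases for the 27 tested members, with all 8 samples (left) and without Siglec-XII 3 and 4 (right). Of the 9 members right of the dotted line at 4 kb, 7 lie below 0 on the left and 4 on the right.

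Among 47 other genes linked to the junction, 39 were tested and none passed the adjusted limit. At unadjusted P, 1 was higher and 6 were lower in Siglec-XII samples, beside 1.19% and 7.67% of all genes, and their median was −0.25. Igsf5, an immunoglobulin-like junction protein, was the higher one (log2 difference 0.25). Of the 2 entries under this symbol, the one with the higher mean was used. The lowest P belonged to Ybx3 (ZONAB), a nuclear partner of zonula occludens protein 1, at a mean of 217.9 TPM in Control and 139.5 TPM in Siglec-XII samples (log2 difference −0.66, SE 0.15, adjusted P = 0.515 by limma). Marveld1 (−0.54), the angiomotin-like genes Amotl1 (−0.83) and Amotl2 (−0.52) and the kinase gene Wnk1 (−0.70) followed. The other lower gene was Rab13 (−0.39), a small GTPase of junction traffic, named after its value was seen. The groups did not overlap for Ybx3, Marveld1 and Amotl2, lower in Siglec-XII samples, and for Igsf5, higher, beside 4.06% and 1.05% of all genes. Marveld1 and the angiomotin-like genes averaged under 6 TPM. Without Siglec-XII 3 and 4 the median of the 39 was 0.07, with none higher and 1 lower at unadjusted P, Ybx3 (−0.42), against 1.18% and 1.57% of all genes. Marveld1 then gave −0.38, Amotl1 −0.38, Amotl2 −0.34, Wnk1 −0.19, Rab13 −0.25 and Igsf5 0.22.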

How the data were processed

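The authors quantified the libraries with kallisto 0.45.0 on GRCm38 by the submitters' processing notes (the methods name another version and a human build), and deposited log2 values, log2(TPM + 1), with 52143 genes and 8 samples. The mouse transcript annotation and strand setting are not given in the sources used here. TPM was recovered as 2 to the deposited value minus the pseudocount of 1. Samples were grouped by their labels. TPM hold no depth, so the effect of depth on the precision could not be judged, and each group held only 4 samples. Genes with at least 1 TPM in at least 4 samples (13164) entered a linear model per gene, fitted across all of them by limma (version 3.58.1, R version 4.3.3) with a mean-variance trend and Benjamini-Hochberg adjustment. The fit was run on simulated data with independent noise for each gene. That simulation held no shift shared by the genes of a sample, so it does not cover such shifts in these data. Members, lists, the length limit and the alternatives were chosen with earlier results of these data known. Values per sample are given for claudins of at least 1 TPM in Control samples, pore claudins, members at unadjusted P of 0.05 or less, and Ocln, Tjp1, F11r, Cgn and Marveld2, and of the linked genes up to 6 by P are named. Positions and lengths are from GENCODE M21, which held 98.3% of gene identifiers, and promoters from RefSeq (30 of 39 members matched). Alternatives were other filters, a pseudocount of 0.1, 3 scalings, array weights, the sample number as a block, and samples left out. Python 3.11.15 made the summaries.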

Additional observations from a re-analysis of the deposited data

Results flagged for a closer look

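Among the 56 sets of 4 samples examined (27 tested members and the pore to sealing ratio in each group), 1 held a sample far from the others. Prkci, the atypical protein kinase C of the Par complex, was 35.5 TPM in Control 2 against 30.5 to 31.2 TPM in the other 3 Control samples. The gap from Control 2 to its nearest neighbor was 0.855 of the whole range on the log2 scale, above Dixon's critical value for 4 samples. Chance flags about 1 in 20 such sets, or 2.8 of 56.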

How the results depend on the processing

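The ratio of pore to sealing claudins in Control samples, a log2 value of −3.05, moved to −4.11 with Cldn7 counted as sealing and to −2.70 without the highest gene of each list, and ran from −3.14 to −2.97 with 1 sample left out. The difference of this ratio between the groups kept its sign in the alternatives run for it, at −0.55 to −0.37 with 1 sample left out. These were samples left out and the sealing list without Cldn5 or with Cldn7. The difference was not computed without the highest gene of each list or under the scalings. The median difference of the members, −0.17, became 0.12 without Siglec-XII 3 and 4, 0.039 after median centering, 0.0084 after quantile normalization and −0.011 with array weights, and ran from −0.27 to −0.02 with 1 sample left out. Members higher at unadjusted P numbered 1, with 7 after median centering (8.64% of all genes) and 0 to 1 with 1 sample left out. Members lower numbered 1, with 2 after quantile normalization, 5 after epithelial centering, 0 without Siglec-XII 3 and 4, and 0 to 6 with 1 sample left out (6 without Siglec-XII 1, 4 without Control 3, 2 without Control 1 or Siglec-XII 2, 0 without Siglec-XII 3 or 4). Lower calls over all genes, 7.67%, came to 16.6%, 8.14%, 7.51%, 10.8%, 2.93% and 3.18% without these 6 samples in the same order, to 3.10% after quantile normalization, 12.5% after epithelial centering and 1.57% without Siglec-XII 3 and 4. Adjusted calls stayed at 0 among members and linked genes in the 17 alternatives.

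The fit with the sample number as a replicate block gave 0 higher calls, in which Marveld3 missed the unadjusted limit, and 1 lower. Deviations of same-numbered samples correlated at −0.16, −0.20, 0.10 and −0.0025 over genes, so the numbers were not taken to pair the samples.

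Of 27 members, 12 kept their sign throughout. Without Siglec-XII 3 and 4 the sign turned for Cgn (0.14), Lsr (0.15), Marveld2 (0.082), Pals1 (0.21), Pard6b (0.13), Patj (0.063) and Tjp3 (0.15). It turned under quantile normalization for Lsr (0.044), Marveld2 (0.0084) and Pals1 (0.10), under median centering for Lsr (0.18), Marveld2 (0.039), Pals1 (0.11) and Tjp3 (0.036), under epithelial centering for Lsr (0.0022), and with array weights for Cgn (0.026), Cldn23 (−0.011), Lsr (0.020) and Pals1 (0.094). With 1 sample left out, Cldn12 ran from −0.053 to 0.11, Cldn23 from −0.13 to 0.18, Cldn7 from −0.023 to 0.11, Cldn8 from −0.034 to 0.36, Cxadr from −0.059 to 0.25, F11r from −0.032 to 0.11, Ildr1 from −0.016 to 0.15, Lsr from −0.16 to 0.088, Ocln from −0.079 to 0.15 and Pals1 from −0.21 to 0.028. The cause of these turns was not tested. Cldn1 was not tested at the filter of 5 TPM.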
